A study of Mus musculus with 4 samples.

Results

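The 9 heat shock chaperone genes described here encode the proteins that fold, refold and carry other proteins in the cytosol, the endoplasmic reticulum and the mitochondria. Every probe set annotated to exactly 1 of the symbols Hspa1a, Hspa1b, Hsph1, Dnajb1, Hspb1, Hspa8, Hspa5, Hspd1 and Hspe1 was taken, which gave 20 of 34945 probe sets and 9 of 18193 named genes. Total RNA of mouse embryonic stem (ES) cells, the self-renewing cells of the early embryo grown in culture, had been hybridised to 4 Affymetrix mouse genome arrays, 1 array for each of 4 groups. These were ES cells with a constitutive Ring1B KO, wild-type ES cells as their control, ES cells with a Ring1A/B double KO (dKO) that was conditional, taken at day 4, and wild-type ES cells as the control of the double KO. Ring1A and Ring1B are the RING-finger ubiquitin ligases of Polycomb repressive complex 1. The double KO was conditional and made with OHT, since cells that lack both proteins constitutively could not be maintained. The labels do not say whether the double KO control had received OHT, how many clones were used, or whether feeder cells were present. With 1 array per group there is no replicate spread, no test was possible, and every difference below is a description of these arrays, whose number limits the precision.

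Heat shock chaperones fall into those that are made in all growing cells and those whose transcription is switched on when proteins misfold. The switch in the cytosol is heat shock factor 1, which binds repeats of the heat shock element, while the endoplasmic reticulum has its own unfolded protein response acting through another element. HSP70 proteins hold exposed hydrophobic stretches of a client in cycles of ATP hydrolysis, J-domain proteins such as Dnajb1 start the cycle, and exchange factors such as Hsph1 end it. Here 5 genes were grouped as inducible (Hspa1a, Hspa1b, Hsph1, Dnajb1 and Hspb1) and 4 as constitutive (Hspa8, Hspa5, Hspd1 and Hspe1). The division is one of degree, since Hspa8, Hspd1 and Hspe1 also respond to heat and Hspa5 to stress of the endoplasmic reticulum.

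The start regions of 4 genes are shown because each stands for a different branch of this system: Hspa1b and Hsph1 for the inducible cytosolic genes, Hspe1 for the mitochondrial pair and Hspa5 for the endoplasmic reticulum. Each line gives 300 bases, from 250 before to 50 after a transcription start in RefSeq (build GRCm38.p6), 5′ to 3′ on the gene's strand. Capitals mark matches to the heat shock element of paired units, GAANNTTC or TTCNNGAA, and to the endoplasmic reticulum stress response element, which is CCAAT and CCACG with 9 unspecified bases between them, searched on both strands.
Hspa1b (chr17:34959189-34959488, minus strand): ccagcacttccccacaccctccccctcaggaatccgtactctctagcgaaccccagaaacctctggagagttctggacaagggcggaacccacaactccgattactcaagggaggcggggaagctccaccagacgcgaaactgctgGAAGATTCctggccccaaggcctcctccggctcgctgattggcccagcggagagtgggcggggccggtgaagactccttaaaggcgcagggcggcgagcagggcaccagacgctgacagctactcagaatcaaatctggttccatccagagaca
Hsph1 (chr5:149636287-149636586, minus strand): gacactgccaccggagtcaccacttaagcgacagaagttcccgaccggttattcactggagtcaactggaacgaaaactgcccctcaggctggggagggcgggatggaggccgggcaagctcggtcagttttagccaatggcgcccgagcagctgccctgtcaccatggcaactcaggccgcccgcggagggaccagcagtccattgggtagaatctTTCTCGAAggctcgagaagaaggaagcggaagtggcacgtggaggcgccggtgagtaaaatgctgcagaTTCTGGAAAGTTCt
Hspe1 (chr1:55087898-55088197, plus strand): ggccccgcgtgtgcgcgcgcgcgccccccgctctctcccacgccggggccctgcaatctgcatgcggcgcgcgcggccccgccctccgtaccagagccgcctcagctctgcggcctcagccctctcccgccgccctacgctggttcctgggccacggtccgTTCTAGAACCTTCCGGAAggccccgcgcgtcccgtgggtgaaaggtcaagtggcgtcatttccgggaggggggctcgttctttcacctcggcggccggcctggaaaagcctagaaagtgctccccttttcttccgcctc
Hspa5 (chr2:34771840-34772139, plus strand): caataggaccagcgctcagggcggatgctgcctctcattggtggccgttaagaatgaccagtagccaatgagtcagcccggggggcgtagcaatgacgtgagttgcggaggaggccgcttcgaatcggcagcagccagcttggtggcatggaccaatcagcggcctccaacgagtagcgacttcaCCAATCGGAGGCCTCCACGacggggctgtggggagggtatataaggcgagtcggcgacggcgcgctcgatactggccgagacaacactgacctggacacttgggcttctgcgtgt

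The Hspa1b window held 1 match of the form GAANNTTC, written GAAGATTC and starting 104 bases before the start site. The Hspa1a window (chr17:34972107-34972406, minus strand) differed from it at 4 of 300 positions and held the same match, so these neighbouring copies of one gene can hardly be told apart in this stretch. Of 32851 promoter windows in the RefSeq table, 7.86% held GAANNTTC and 8.52% held TTCNNGAA. A longer form, GAANNTTC followed by NNGAA, contains both short forms and was held by 0.603% of windows on either strand. The Hsph1 window held this longer form once, spelled TTCTGGAAAGTTC, and the Hspe1 window held it as 2 overlapping matches, TTCTAGAACCTTC and GAACCTTCCGGAA. Hspd1 and Hspe1 are divergent neighbours, and 1 of the Hspd1 windows shared 285 bases with the Hspe1 window and so held the same matches. Hspb1 had 2 matches to GAANNTTC, and the Dnajb1 windows had none to either form. The Hspa5 window held the endoplasmic reticulum element once, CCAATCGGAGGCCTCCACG, which 0.119% of windows held. Windows were found for 8 of the 9 genes, Hspa8 being the other. A match is a spelling and says nothing about binding.

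Before the members, the arrays were checked against their labels. Signals were scaled to a common 2%-trimmed mean and given on that linear scale, and signals at or under a floor of 36.6, the 40th percentile, were set to the floor before log2 differences were taken. Rnf2, the gene of Ring1B, read 2775 on the array labelled Ring1B KO against 2579.7 on its control, and 1986 on the array labelled dKO against 2182 on its control. Ring1, the gene of Ring1A, read 164 against 146 and 55.6 against 44.7 in the same order. Neither targeted gene was therefore 2-fold lower than its own control on the array labelled as lacking it, whether the probes lie in the deleted part is not known here, and every direction below refers to the arrays as labelled. The differences were 0.11 and −0.14 for Rnf2 and 0.16 and 0.31 for Ring1 in the Ring1B and double KO comparisons, and the double KO direction of Rnf2 turned to 0.15 under common-median scaling and that of Ring1 to −1.39 when the other pair's control was used. These probe sets therefore do not establish which array of a pair is the KO. If the labels of the double KO pair were exchanged, every double KO difference below would change its sign (Hspa1b would be 8.32-fold higher in place of lower), and the genes counted here as opposite in the 2 comparisons would be those that run the same way. All 8 ES cell markers were above the floor on every array, with a summed signal of 42505 on the array labelled Ring1B KO against 52125 on its control, and 57017 on the array labelled dKO against 40428 on its control. Their median log2 difference was −0.26 in the Ring1B comparison and 0.77 in the double KO comparison. When the other pair's control was used, the first turned to 0.44 and the second fell to 0.10. Arrays of a pair correlated at r = 0.981 (Ring1B pair) and r = 0.969 (double KO pair) over probe sets, against 0.934 to 0.949 across pairs. Actb controls gave 3′/5′ signal ratios of 1.16 to 1.26 over the arrays, a measure of RNA integrity.

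The inducible HSP70 genes Hspa1a and Hspa1b had the widest differences of the 9 chaperone genes at 1 probe set per gene, and those differences ran in opposite directions in the 2 comparisons. Hspa1b was higher on the array labelled Ring1B KO and much lower on the array labelled dKO, each against its own control. Hsph1 and Dnajb1, which serve the HSP70 cycle, went the same ways by less than 2-fold. The small heat shock gene Hspb1 and the constitutive genes Hspa8, Hspd1 and Hspe1 differed by between −0.09 and 0.13 log2 units at their brightest probe sets in both comparisons.

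**Figure D1:**
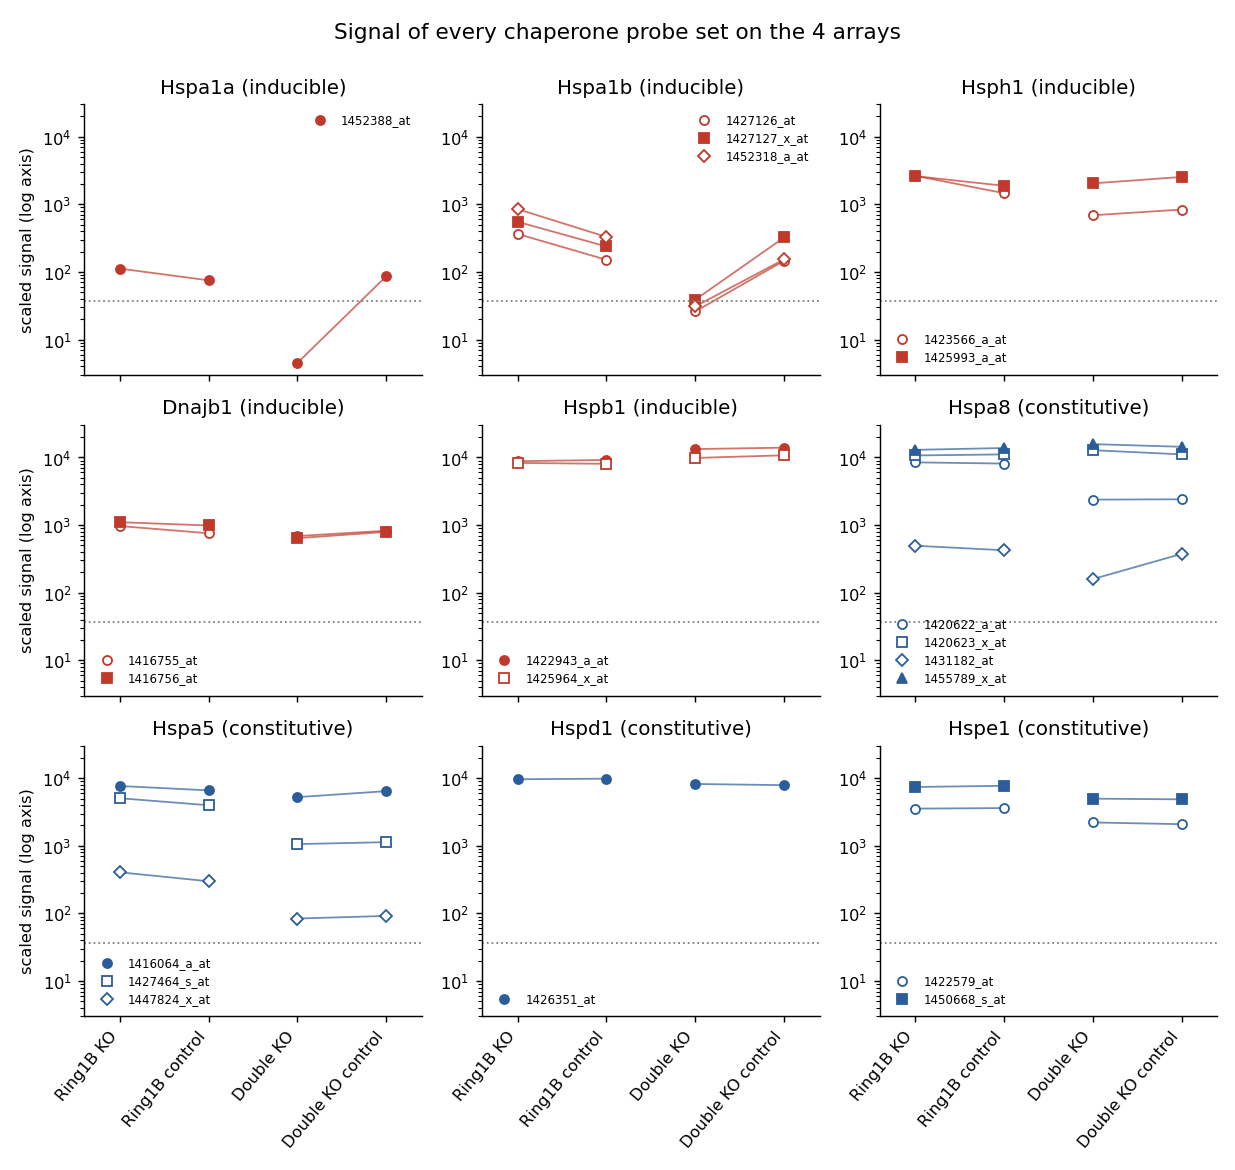
Scaled signal (log axis) of each of the 20 chaperone probe sets on the arrays labelled Ring1B KO, Ring1B control, double KO and double KO control. Symbols are probe sets, filled where the probe set stands for its gene, lines join the 2 arrays of a pair, and the dotted line is the floor at 36.6; the 3 Hspa1b probe sets lie at 365 to 849.9 on the array labelled Ring1B KO and at 26.0 to 38.8 on the array labelled dKO.

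Hspa1b, the heat-inducible HSP70 that is scarce in unstressed cells of most kinds, was measured by 3 probe sets. Its brightest one (1427127_x_at) read 552 on the array labelled Ring1B KO against 238 on its control, and 38.8 on the array labelled dKO against 323 on its control. The deposited signals behind these values were 995.7 against 429.2 and 20.6 against 187.2. The array labelled Ring1B KO thus lay above its control, and that labelled dKO lay below its control and close to the floor. The log2 difference was 1.21 (2.32-fold higher) in the Ring1B comparison and −3.06 (8.32-fold lower) in the double KO comparison.

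The other Hspa1b probe sets kept that order of KO and control. Probe set 1452318_a_at read 849.9 against 329 in the Ring1B pair, and 30.9 against 153 in the double KO pair. Probe set 1427126_at read 365 against 151, and 26.0 against 147. Both were at the floor on the array labelled dKO, so that they were at least 4.19-fold and at least 4.01-fold lower there, and they were 2.58-fold and 2.41-fold higher on the array labelled Ring1B KO. All 3 probe sets thus passed 2-fold in both comparisons, upward in the first and downward in the second.

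In the Ring1B comparison 262 of 12366 genes above the floor on at least 1 array had a larger difference upward than Hspa1b, and in the double KO comparison 21 of 12384 had a larger one downward. Of the 11611 genes that could be followed in both comparisons, 223 (1.92%) were at least 2-fold higher in the first and at least 2-fold lower in the second, and Hspa1b was one of them. The Hspa1b difference depends on the choice of control and of floor. Set against the other pair's control, the array labelled Ring1B KO was higher by 0.77 at the brightest probe set, under 2-fold. At 1427126_at and 1452318_a_at it was higher by 1.32 and 2.47 against that control. A floor at the 60th percentile (126.6) made 1452318_a_at the probe set of the gene and left a double KO difference of −0.28.

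Hspa1a, the neighbouring copy that encodes an almost identical protein, was measured by 1 dim probe set (1452388_at). It read 112 on the array labelled Ring1B KO against 75.1 on its control, and 4.53 on the array labelled dKO against 86.5 on its control. The directions were those of Hspa1b, with a difference of 0.58 in the Ring1B comparison and at least 2.37-fold lower in the double KO comparison. This bound fell under 2-fold without scaling (−0.41), and no difference was left under a floor at the 60th percentile. Since the transcripts of Hspa1a and Hspa1b are near-identical, a probe of either may bind both, and the 4 probe sets are not independent readings of separate genes.

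Hsph1, an HSP110 exchange factor that releases nucleotide from HSP70, had 2 probe sets. The brighter (1425993_a_at) read 2610.1 on the array labelled Ring1B KO against 1877 on its control, and 2039 on the array labelled dKO against 2543 on its control. The other (1423566_a_at) read 2639 against 1459.8, and 689 against 837. Both were higher on the array labelled Ring1B KO, with differences of 0.48 and 0.85, and lower on the array labelled dKO, with differences of −0.32 and −0.28, under 2-fold throughout. The double KO direction of the brighter probe set turned to 0.12 when the other pair's control was used.

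Dnajb1, the J-domain protein that loads clients onto inducible HSP70, had smaller differences in the same directions. Its brighter probe set (1416756_at) read 1103 on the array labelled Ring1B KO against 986 on its control, and 640.4 on the array labelled dKO against 794 on its control. The other (1416755_at) read 967 against 757, and 688 against 825. The differences were 0.16 and 0.35 in the Ring1B comparison and −0.31 and −0.26 in the double KO comparison. At the brighter probe set the double KO difference was −0.02 under common-median scaling.

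Hspb1, a small heat shock protein that binds unfolding clients without ATP, stood apart from the other inducible genes by its even signals. Probe set 1422943_a_at read 8808 on the array labelled Ring1B KO against 9187 on its control, and 13314 on the array labelled dKO against 13955 on its control. Probe set 1425964_x_at read 8305 against 8054, and 9838 against 10765. The differences were −0.06 and 0.04 in the Ring1B comparison and −0.07 and −0.13 in the double KO comparison. The KO and control of a pair were thus closer to each other than the pairs were, since Hspb1 was 1.52-fold lower on the Ring1B control than on the double KO control at the brighter probe set.

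Hspa5, the HSP70 of the endoplasmic reticulum known as BiP, was measured by 3 probe sets that all pointed one way in each comparison. Its brightest probe set (1416064_a_at) read 7675 on the array labelled Ring1B KO against 6606 on its control, and 5252 on the array labelled dKO against 6438 on its control. The differences of its 3 probe sets were 0.22 to 0.44 in the Ring1B comparison and −0.29 to −0.10 in the double KO comparison. These are the directions of Hspa1b at well under 2-fold, and at the brightest probe set the double KO difference was −0.00306 under common-median scaling.

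Hspa8, the constitutive HSP70 cognate of the cytosol, had 4 probe sets. The brightest (1455789_x_at) read 12959 on the array labelled Ring1B KO against 13789.5 on its control, and 15754.5 on the array labelled dKO against 14367 on its control, which are differences of −0.09 and 0.13. Probe sets 1420623_x_at and 1420622_a_at differed by −0.05 and 0.06 in the Ring1B comparison and by 0.20 and −0.02 in the double KO comparison. The dim probe set 1431182_at read 495 against 424, and 159 against 376, and so was 2.36-fold lower on the array labelled dKO while the bright ones were not. What part of the Hspa8 transcripts this dim probe set reads is not given in the sources used here.

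Hspd1 and Hspe1 encode the HSP60 chaperonin of the mitochondrial matrix and its HSP10 lid. Hspd1 (1426351_at) read 9660.3 on the array labelled Ring1B KO against 9846 on its control, and 8221 on the array labelled dKO against 7889.7 on its control. Hspe1 read 7422 against 7728 and 4986 against 4872 at 1450668_s_at, and 3549 against 3619 and 2216 against 2089.9 at 1422579_at. The 3 probe sets differed by −0.06 to −0.03 in the Ring1B comparison and by 0.03 to 0.08 in the double KO comparison. The signals of these genes, which share a start region, thus differed least of the 9 between the arrays of a pair. Hspb1 was nearly as even (−0.06 and −0.07 at its brighter probe set). Hsph1, whose window also holds the longer heat shock element, differed by 0.48 and 0.85 in the Ring1B comparison. Against the other pair's control Hspe1 differed by 0.61 in the Ring1B comparison and by −0.63 in the double KO comparison.

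**Figure D2:**
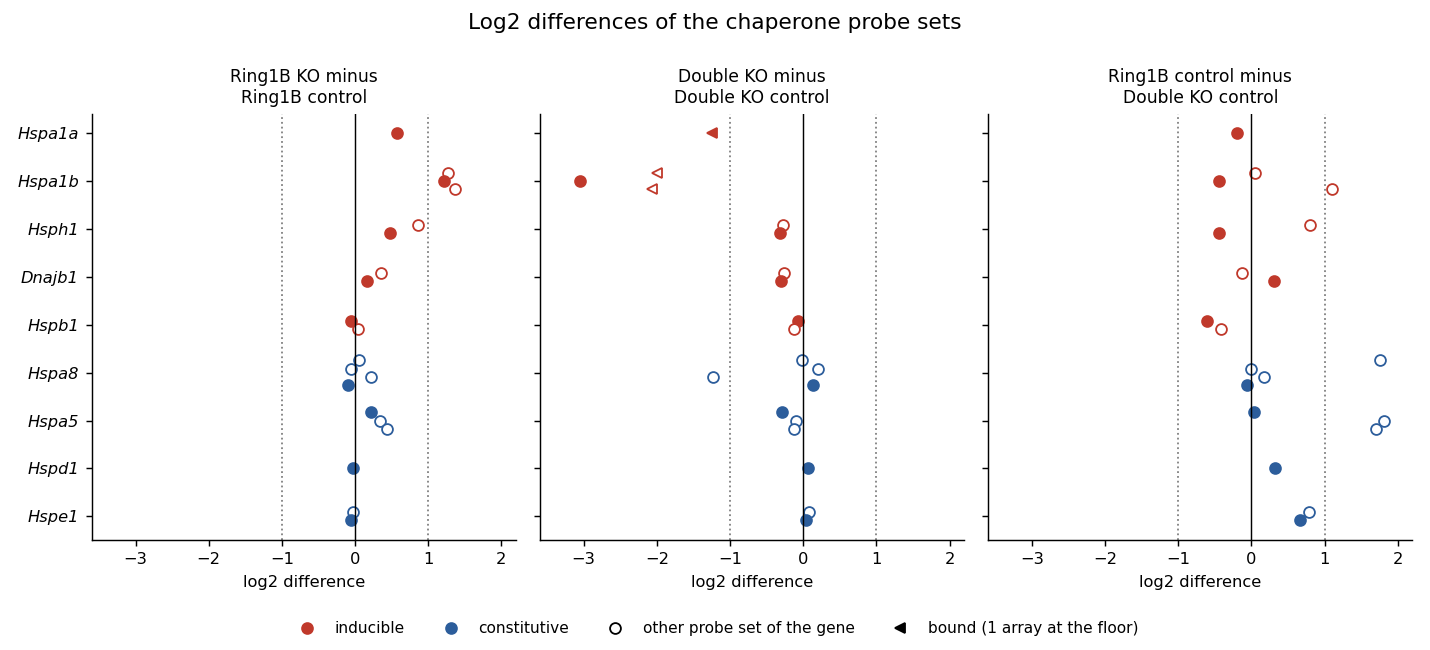
Log2 differences (x axis) of every chaperone probe set for the array labelled Ring1B KO minus its control, the array labelled dKO minus its control, and the control arrays against each other, with genes in rows. Filled points are the probe sets used for a gene, triangles are bounds with 1 array at the floor, and dotted lines mark 2-fold; the Hspa1b points lie right of 1 in the first panel and left of −2 in the second, while the widest spread among probe sets of one gene is in the third.

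Taken by class at 1 probe set per gene, the inducible genes had a median difference of 0.48 in the Ring1B comparison, between −0.06 and 1.21. The median of the constitutive genes was −0.04, between −0.09 and 0.22, and that of all 12366 genes was −0.02. In the double KO comparison the inducible median was −0.32, between −3.06 and −0.07, the constitutive median was 0.05, between −0.29 and 0.13, and that of all 12384 genes was −0.05. The inducible genes therefore stood 0.52 above the constitutive ones in the Ring1B comparison and 0.36 below them (−0.36) in the double KO comparison. The direction of the constitutive medians turned under some scalings, to 0.09 for the Ring1B comparison under quantile normalization and to −0.08 and −0.07 for the double KO comparison with values as deposited and under quantile normalization, so none is claimed. Under a 60th-percentile floor the Ring1B contrast between the classes shrank to 0.20, and against the control of the other pair to 0.10.

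Counted at 2-fold, 1 of 5 inducible genes (Hspa1b) was higher and none lower in the Ring1B comparison, where 3.57% of all genes were higher by that much and 2.60% lower. None of the 4 constitutive genes was 2-fold apart, as 6.17% of all genes were. In the double KO comparison 2 of 5 inducible genes (Hspa1a and Hspa1b) were at least 2-fold lower, where 10.0% of all genes were. None of the constitutive genes was 2-fold apart there, as 13.0% of all genes were. The double KO comparison had 371 genes higher and 1242 lower by 2-fold or more, a split that became 769 and 849 when the arrays were scaled to a common median instead. By probe set, 3 of 10 inducible ones were at least 2-fold higher in the Ring1B comparison (all of Hspa1b, against 2.88% of all probe sets) and 4 of 10 were at least 2-fold lower in the double KO comparison (those of Hspa1a and Hspa1b, against 8.37%). Among the 10 constitutive ones none was at least 2-fold higher in the first, and 1 (1431182_at of Hspa8) was at least 2-fold lower in the second.

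Direction without regard to size was shared more widely. Of the 10 inducible probe sets 9 were higher on the array labelled Ring1B KO and lower on the array labelled dKO than on their own controls, as were 5 of the 10 constitutive ones. Over all probe sets that could be followed in both comparisons this held for 30.5%, and over all genes for 32.3%, so that opposite directions are common on these arrays.

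**Figure D3:**
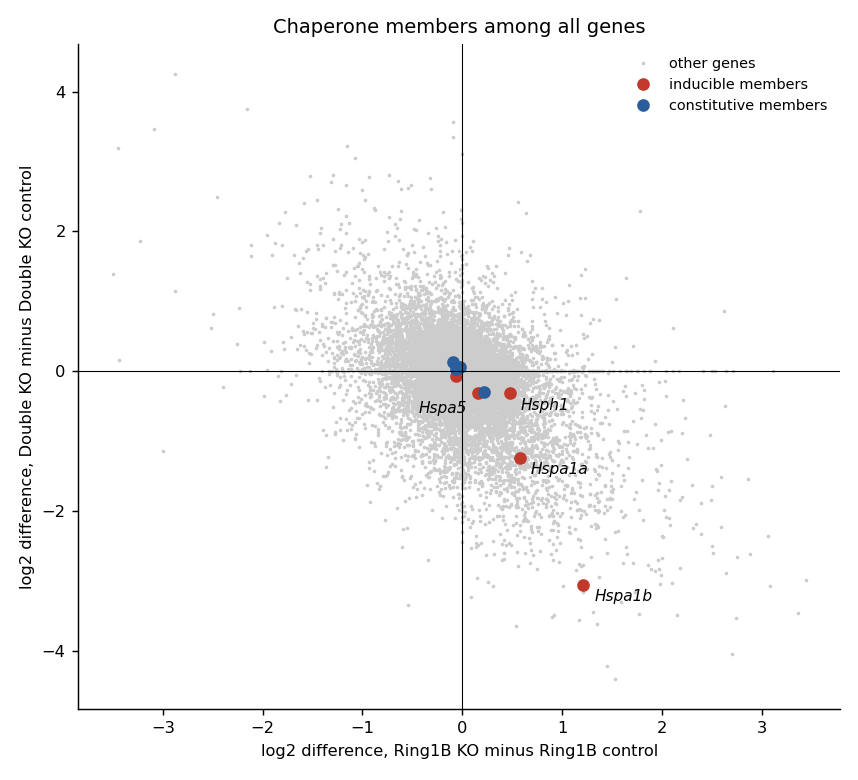
Each gene's log2 difference in the Ring1B comparison (x axis) and in the double KO comparison (y axis), KO minus own control, with grey points for other genes and coloured points for the chaperone genes. Hspa1b lies at 1.21 and −3.06 and Hspa1a at 0.58 and −1.24 (a bound in the double KO comparison), while the constitutive genes lie near the origin.

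The control arrays differed from each other at single probe sets of some genes and at every probe set of others. Hspe1 was higher on the Ring1B control array at both probe sets (0.67 and 0.79), and Hspb1 was lower at both (−0.60 and −0.42). For Hspa8, 1420622_a_at read 8115 on the control of the Ring1B pair against 2408 on that of the double KO pair, which is 3.37-fold apart, while 1455789_x_at and 1420623_x_at were within 0.06 log2 units. For Hspa5, 1427464_s_at and 1447824_x_at were 3.51-fold and 3.26-fold higher on the Ring1B control array, while the brightest probe set differed by 0.04. Over the 20 chaperone probe sets 4 were at least 2-fold higher on the Ring1B control array and none lower, where 11.4% of all probe sets were higher and 10.1% lower. Levels of a chaperone gene can therefore not be set across the pairs from these arrays, and the cause was not tested. Within a pair the probe sets of a gene lay within 0.38 log2 units of each other in the Ring1B comparison. In the double KO comparison they did so for all genes but Hspa1b and Hspa8, whose ranges were 1.05 and 1.44. Of the 3 Hspa1b differences 2 are bounds, so the size of its range depends on the floor.

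The partners of the inducible chaperones were followed as lists. Bag3 and Bag2, exchange factors of HSP70, were higher on the array labelled Ring1B KO (307 against 184, and 397 against 235) and at least 2-fold lower on the array labelled dKO (107 against 224, 2.09-fold, and 85.6 against 196, 2.29-fold). Both double KO calls were lost under common-median scaling (−0.78 for Bag3 and −0.90 for Bag2), quantile normalization (−0.80 and −0.92) and a 60th-percentile floor (−0.82 and −0.63), and that of Bag3 when the other pair's control was used (−0.79). Their relative Bag5 was 2.34-fold higher in the Ring1B comparison (882 against 378), a difference that shrank to 0.31 when the other pair's control was used, and differed by −0.81 in the double KO comparison (406 against 710.2), where it turned to 0.10 with that change of control. Of the 8 genes of this list, 1 was at least 2-fold higher and none lower in the Ring1B comparison. Among all genes 3.57% were higher and 2.60% lower by that much there. In the double KO comparison none of the 8 was at least 2-fold higher and 2 were lower. There 10.0% of all genes were lower by that much, and 13.0% were 2-fold apart in either direction. The list medians were 0.09 and −0.09 in the Ring1B and double KO comparisons. Of 10 J-domain genes, Dnaja4 alone was 2-fold apart, and only in the double KO comparison, where 13.0% of all genes were. None was in the Ring1B comparison, where 6.17% of all genes were. Dnaja4 was at least 3.77-fold lower on the array labelled dKO (19.6 against 138). It differed by 0.64 in the Ring1B comparison (116 against 74.4), a direction that turned to −0.25 against the other control. The Dnaja4 difference in the double KO comparison was −0.12 under a 60th-percentile floor. The J-domain medians were 0.11 and 0.05, the second turning to −0.08 with values as deposited, and the double KO median of the exchange factors turned to 0.20 under common-median scaling.

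Among the other small heat shock genes, Cryab, which encodes alpha B-crystallin, had the directions of Hspa1b. It read 985 on the array labelled Ring1B KO against 429 on its control (2.30-fold higher), and 63.0 on the array labelled dKO against 158 on its control (2.51-fold lower). Both calls were lost in an alternative, the Ring1B difference being 0.83 with the mean over probe sets and the double KO difference −0.32 under a 60th-percentile floor. Hspb8, a partner of Bag3, was 2.24-fold lower on the array labelled dKO (298 against 667) but differed by −0.68 in the Ring1B comparison (427 against 682), and Hspb2 was 2.59-fold lower (53.2 against 137) and differed by −0.13. The double KO differences shrank to −0.40 for Hspb8 with the mean over probe sets and to −0.12 for Hspb2 under a 60th-percentile floor, and the Hspb2 difference in the Ring1B comparison turned to 0.56 when the other pair's control was used. In all, 1 of 6 genes above the floor was at least 2-fold higher in the Ring1B comparison and 3 of 5 were at least 2-fold lower in the double KO comparison, against 3.57% and 10.0% of all genes, with medians of −0.11 and −1.16. The double KO median was −0.40 with the mean over probe sets and −0.14 under a 60th-percentile floor, and the Ring1B median turned to 0.42 when the other pair's control was used.

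The HSP90 machinery, which matures kinases and steroid receptors downstream of HSP70, did not take the directions of Hspa1b. Its cytosolic inducible form Hsp90aa1 read 13237 on the array labelled Ring1B KO against 15918 on its control and 14111 on the array labelled dKO against 14763 on its control, and differed by −0.27 and −0.07, the second turning to positive when arrays were scaled to a common median or probe sets were averaged. Of 10 genes above the floor none was 2-fold apart in the Ring1B comparison (median −0.13), against 6.17% of all genes. In the double KO comparison (list median 0.30) 1 of the 10 was 2-fold apart, against 13.0% of all genes. This was the immunophilin gene Fkbp5, which was higher on the array labelled dKO (2291 against 1103, 2.08-fold). That call was lost when the other pair's control was used (0.51), with the mean over probe sets (0.67) and with values as deposited (0.93), and the Ring1B median turned to 0.04 with the other pair's control. Of 7 other HSP70 and HSP110 genes, Hspa12a was at least 2.34-fold lower on the array labelled dKO (34.1 against 85.7). Of all genes 10.0% were at least 2-fold lower there. None other of the 7 was 2-fold apart in either comparison, and the medians were −0.01 and −0.11. The Hspa12a call was lost with values as deposited (−0.40), with the mean over probe sets (−0.65), without probe sets whose names end in s or x (−0.84) and under a 60th-percentile floor, and the double KO median turned to 0.18 under common-median scaling. The mitochondrial HSP70 gene Hspa9 differed by −0.01 and −0.11, and each turned under another scaling.

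The organelle lists and the cytosolic chaperonin held no gene at 2-fold. Among all genes 6.17% were 2-fold apart in the Ring1B comparison and 13.0% in the double KO comparison. Of 22 genes of endoplasmic reticulum folding and the unfolded protein response none was 2-fold apart in either comparison, with medians of 0.23 and −0.02, the second of which became 0.27 under common-median scaling. In the Ring1B comparison 16 of them were higher and 6 lower. The reticulum's HSP90 form Hsp90b1 differed by 0.16 (4534 against 4053) and 0.41 (3356 against 2522), the second of which turned to −0.27 when the other pair's control was used. None of 8 mitochondrial chaperone and protease genes and none of 13 genes of the TRiC chaperonin and prefoldin was 2-fold apart, with medians of −0.02 and 0.08 and of −0.06 and 0.12. Of the TRiC and prefoldin genes 10 of 13 were lower in the Ring1B comparison and 11 of 13 higher in the double KO comparison. The median of the TRiC list turned to 0.000909 in the Ring1B comparison under quantile normalization and to −0.01 in the double KO comparison with values as deposited, where that of the mitochondrial list was −0.05. Of 3 heat shock factor genes above the floor none reached 2-fold with the floor used. Hsf2, a factor active in development, read 20.7 on the array labelled Ring1B KO against 60.8 on its control, so that it was at least 1.66-fold lower there. A floor at the 20th percentile made this difference −1.56. In the double KO pair Hsf2 read 45.8 on the array labelled dKO against 49.2 on its control, and the direction turned to 0.19 under common-median scaling. Hsf1, Hsp90ab1, Ptges3 and Dnajc19 were not analysed here.

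**Figure D4:**
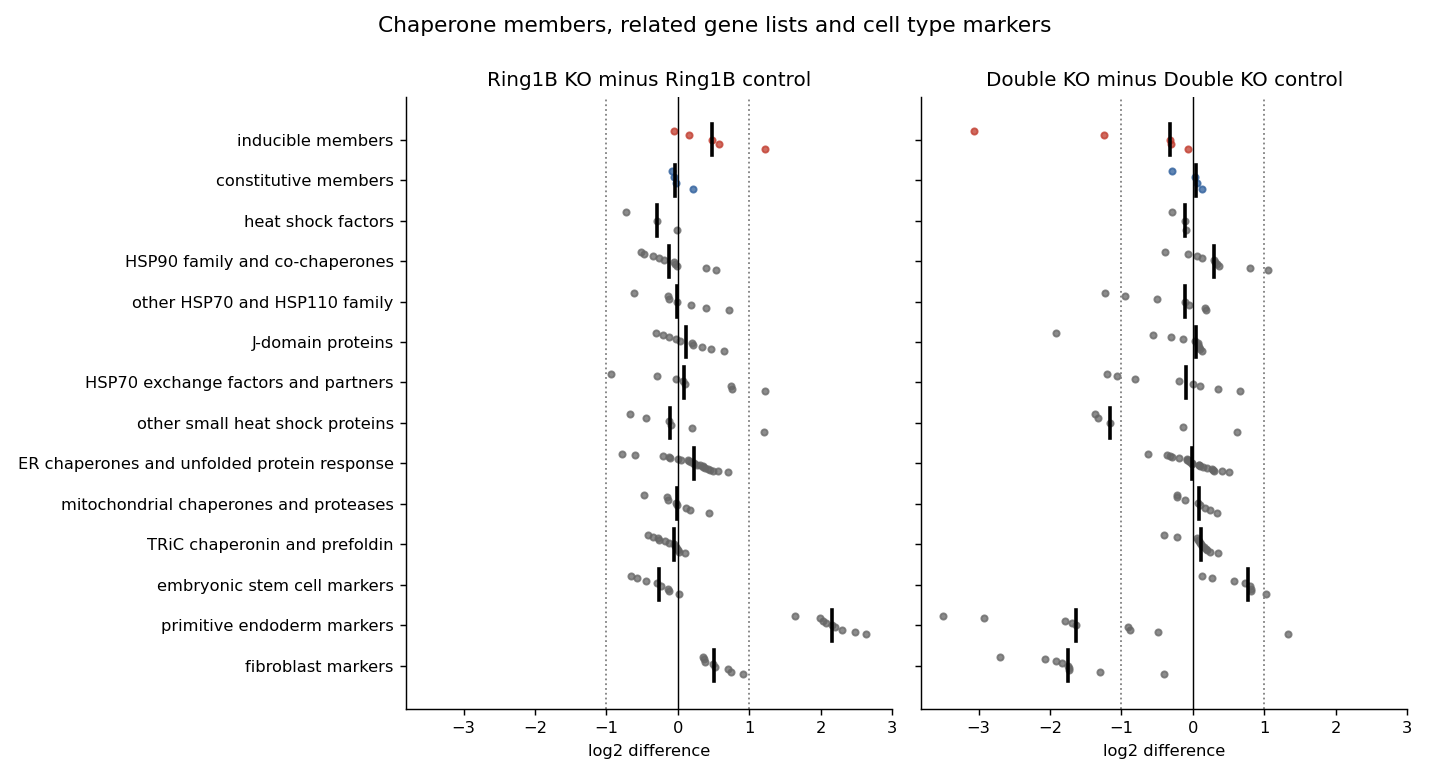
Log2 differences (x axis) of the inducible and constitutive chaperone genes, of related gene lists and of cell type markers, KO minus own control, in the Ring1B (left) and double KO (right) comparisons. Each point is a gene above the floor on at least 1 array of the pair, black bars are medians, and dotted lines mark 2-fold; the inducible median is 0.48 on the left and −0.32 on the right, beside −0.02 and −0.05 for all genes.

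Markers of other cell types differed in the directions of Hspa1b. Of 9 primitive endoderm markers above the floor in each comparison, all 9 were at least 2-fold higher on the array labelled Ring1B KO, and 5 were at least 2-fold lower and 1 (Lama1) higher on the array labelled dKO, Lama1 turning to −0.75 when the other pair's control was used. Over the whole list of 10, the summed signal was 14320.4 on the array labelled Ring1B KO against 3484 on its control, and 965 on the array labelled dKO against 3228 on its control. Of the defining factor genes, Gata6 read 1006 against 227 in the Ring1B pair and 31.5 against 413 in the double KO pair. Sox17 read 1347 against 217 and 1.13 against 51.5 in the same order. Both were under the floor on the array labelled dKO, so that they were at least 11.3-fold and at least 1.41-fold lower there. No Sox17 difference was left in the double KO comparison under a 60th-percentile floor or with values as deposited. Of the fibroblast markers, none of 8 above the floor was 2-fold apart in the Ring1B comparison, against 6.17% of all genes. In the double KO comparison 8 of 9 were at least 2-fold lower, against 10.0% of all genes. The differences of the fibroblast marker Dcn turned from 0.36 and −1.91 to −1.82 and 0.27 when the other pair's control was used. The summed signal of the fibroblast markers was 6088 against 4108 and 1011 against 3569 in the same order. The part of other cell types in the Hspa1b and Cryab differences was not tested, and fewer cells of a type and less RNA per cell cannot be told apart in such bulk samples.

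The genes whose signals over the 4 arrays were most like the mean profile of the inducible chaperones were Bend4, Rfk, Slc35f5, Glce and Gng12. Likeness was the Euclidean distance between log2 signals centred on their own mean, over 4 arrays and 8228 candidate genes. The distances were 0.0664, 0.0788, 0.0971, 0.102 and 0.119. The nearest, Bend4, read 657 on the array labelled Ring1B KO against 483 on its control, and 288 on the array labelled dKO against 549.6 on its control. The mean profile is weighted by Hspa1b and Hspa1a, whose double KO differences were −3.06 and −1.24 (a bound), beside an inducible median of −0.32. It also spans the pairs, across which levels of a chaperone gene cannot be set. With 4 arrays such closeness is a description of the profile alone.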

How the data were processed

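Per the labels' protocols, total RNA was extracted with Trizol, column-purified and biotin-labelled by a single-cycle kit. The deposited values are signal intensities of 45101 probe sets on a linear scale, which the authors computed with MAS5, according to the submitters' processing notes, with version and settings not given in the sources used here. Their 2%-trimmed mean was 500.0 for each array of the Ring1B pair, 147 for the array labelled dKO and 160.4 for its control. Each array was rescaled to a common trimmed mean (factors 0.554, 0.554, 1.89 and 1.73). Signals were floored at 36.6, the 40th percentile of probe sets with 1 gene symbol, and log2-transformed. A gene at the floor on 1 of 2 arrays has a bound, shown as "at least". A gene was represented by its probe set with the highest mean log2 signal after the floor, and all probe sets of the 9 chaperone genes are reported. Control probe sets were left out of gene counts.

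Genes were named from the platform annotation (34958 probe sets with 1 symbol, 932 with several, 9211 unnamed). Detection calls were not used, and saturation was not assessed. The named genes were the 9 members with all their probe sets, list members at least 2-fold apart in either comparison (up to 4 per list and comparison), Hsf2, Hsp90aa1, Hsp90b1, Hspa9, Ring1 and Rnf2, and the 5 genes of nearest profile. The rule also names Hsf1 and Hsp90ab1, which were not analysed here. The members and lists were chosen with earlier results of these data known. With 1 array per group no test was run. Motifs were searched by exact letters on both strands. Steps were tested on simulated data. Python 3.11.15, numpy 2.4.6, scipy 1.17.1 and pandas 2.3.3 were used.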

Additional observations from a re-analysis of the deposited data

Results flagged for a closer look

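Several differences had opposite directions in the 2 comparisons, which was not tested, since each direction rests on 1 array against 1 array. The value given is the log2 difference of the double KO comparison minus that of the Ring1B comparison. It was −4.27 for Hspa1b and −1.82 for Hspa1a, which is a bound. It was −0.79 for Hsph1 (0.48 and −0.32 in the Ring1B and double KO comparisons), −0.47 for Dnajb1 and −0.51 for Hspa5. The constitutive genes Hspa8, Hspd1 and Hspe1 ran the other way by 0.22, 0.0868 and 0.0919. The median of the inducible genes differed by −0.79, that of the constitutive genes by 0.0894, and the contrast between the classes by −0.88. Opposite directions of the Hspa1b kind, higher in the first comparison and lower in the second, held for 32.3% of the 11611 genes followed in both.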

How the results depend on the processing

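The differences of the 9 chaperone genes were recomputed in both comparisons under 8 alternatives. Hspa1b kept its directions in all 8, from 0.77 to 1.37 in the Ring1B comparison and from −3.06 to −0.28 in the double KO comparison. The 0.77 was that of 1427127_x_at against the other pair's control, where 1427126_at and 1452318_a_at gave 1.32 and 2.47. Dnajb1 and Hspa5 kept their directions too, but their double KO differences were only −0.02 and −0.00306 under common-median scaling. That of Hsph1 was −0.03 under this scaling, and its Ring1B difference was 0.04 against the other pair's control. The double KO value of Hspa1b was −1.24 with values as deposited, where the floor was 37.6 and 1452318_a_at stood for the gene in place of 1427127_x_at. It was −2.38 with the mean over probe sets and −2.07 without probe sets whose names end in s or x. Hspa1a reached −2.86 under a floor at the 20th percentile, since that floor is lower. Hspb1 and Hspe1 took values of −0.66 and 0.61 in the Ring1B comparison and 0.54 and −0.63 in the double KO comparison against the control of the other pair, and the cause was not tested. Scaling to a common median moved the median of all genes in the double KO comparison by 0.27, and the inducible and constitutive medians to −0.03 and 0.34, with the contrast between them at −0.36 as before. Using the other control moved the all-gene median of the Ring1B comparison by −0.12.

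Counts of all genes at least 2-fold apart depended on the floor. In the Ring1B comparison 441 were higher and 322 lower, against 886 and 769 under a floor at the 20th percentile, 172 and 152 at the 60th, and 1012 and 1405 against the other control. In the double KO comparison 371 were higher and 1242 lower, against 930 and 2205, and 218 and 530, with those floors. There the number higher was 232 with values as deposited, 769 with a common median and 963 against the other control. No paired analysis was possible because each group has 1 array and the labels give no replicate numbers, and for the same reason no array could be left out. Signals near the floor, those of Hspa1a and Hspa1b on the array labelled dKO, limit how large a difference can be measured.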
